A study of Macaca fascicularis with 6 samples.

Results

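The genes described here are the NLRP genes of the oocyte that lie outside the core of the subcortical maternal complex: NLRP2, NLRP4, NLRP7, NLRP9, NLRP11, NLRP13 and NLRP14. They were chosen by name from the 28164 genes of a count table of cynomolgus monkey (Macaca fascicularis) oocytes, in which all 7 were found. Of these, 6 stood under their own symbol. NLRP9 stood under the identifier LOC102117157, which a RefSeq gene table pairs with that symbol by gene number. The oocytes came in 3 groups of 2 libraries each. IVM MII oocytes had matured in culture to metaphase of the second meiotic division, IVO MII oocytes had done so in the animal, and GV oocytes were immature, with the nucleus (germinal vesicle) intact. Every group is labelled wild type, untreated and stripped of surrounding cells. The sources used here give neither the age or number of the animals nor the number of oocytes in a library.

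NLRP proteins are intracellular proteins with a pyrin domain, an ATP-binding NACHT domain and leucine-rich repeats. Some of them build inflammasomes, the platforms that activate inflammatory caspases, whereas a group on the chromosome that carries NLRP5 is known chiefly from oocytes and early embryos. NLRP5 (also called MATER) is a core part of the subcortical maternal complex, a protein assembly beneath the oocyte membrane that the cleaving embryo needs. Maternal variants of human NLRP7 cause recurrent hydatidiform moles, and variants of human NLRP2 have been found in mothers of children with imprinting disorders. In mice, NLRP14 is needed in the oocyte for early development.

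The libraries held 27707021 to 35515139 counts. Levels are given as CPM, the usual scaling of counts to library size, here with TMM factors, and a value after ± is the SD of 2 libraries for a level or the standard error of the fit for a log2 fold change. A gene is said to be higher or lower, or to have risen or fallen, where edgeR's quasi-likelihood test gave a Benjamini-Hochberg adjusted p under 0.05 over the 15815 genes tested. All 7 genes were tested, and the lowest count of any of them in any library was that of NLRP7 in IVO MII replicate 1, at 1669. The summed CPM of 14 listed oocyte markers was 18377 and 20610 in IVM MII, 17000 and 21934 in IVO MII, and 33341 and 39895 in GV. Of 15 granulosa and cumulus cell markers, AMHR2, FOXL2, INHA, STAR and PTX3 had no count in any library. The summed CPM of the 15 was 88.2 and 86.2 in IVM MII, 36.9 and 53.6 in IVO MII, and 40.4 and 34.9 in GV. Of 7 listed blood and immune markers, CD3E and HBB had no count, and the sum was 6.18 and 5.85 CPM in IVM MII, 7.34 and 4.38 CPM in IVO MII, and 13.7 and 13.5 CPM in GV.

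In the macFas5 genome, the annotation of the deposited table, NLRP7 and NLRP2 are neighbours on chromosome 19, and NLRP11, NLRP4 and NLRP13 lie further along it. NLRP7 (minus strand, 55706551 to 55746279, 15 merged exons) and NLRP2 (plus strand, 55759049 to 55791165, 13 merged exons) stand head-to-head, 12.8 kb apart with no gene between. NLRP2 and NLRP11 were 837 kb apart, with 43 genes between. NLRP11 (minus strand, 56628258 to 56660449, 9 merged exons) stands head-to-head with NLRP4 (plus strand, 56687496 to 56717421, 9 merged exons), 27.0 kb apart. NLRP13 (minus strand, 56723427 to 56767592, 14 merged exons) follows NLRP4 tail-to-tail after 6.01 kb. NLRP8 and the core gene NLRP5 come next, and the stretch from NLRP11 to NLRP5 spans 254 kb. NLRP9 lay on an unplaced scaffold assigned to chromosome 19 (minus strand, 9153 to 27521, 4 merged exons). NLRP14 was alone on chromosome 14 (minus strand, 60847140 to 60906374, 14 merged exons).

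**Figure D1:**
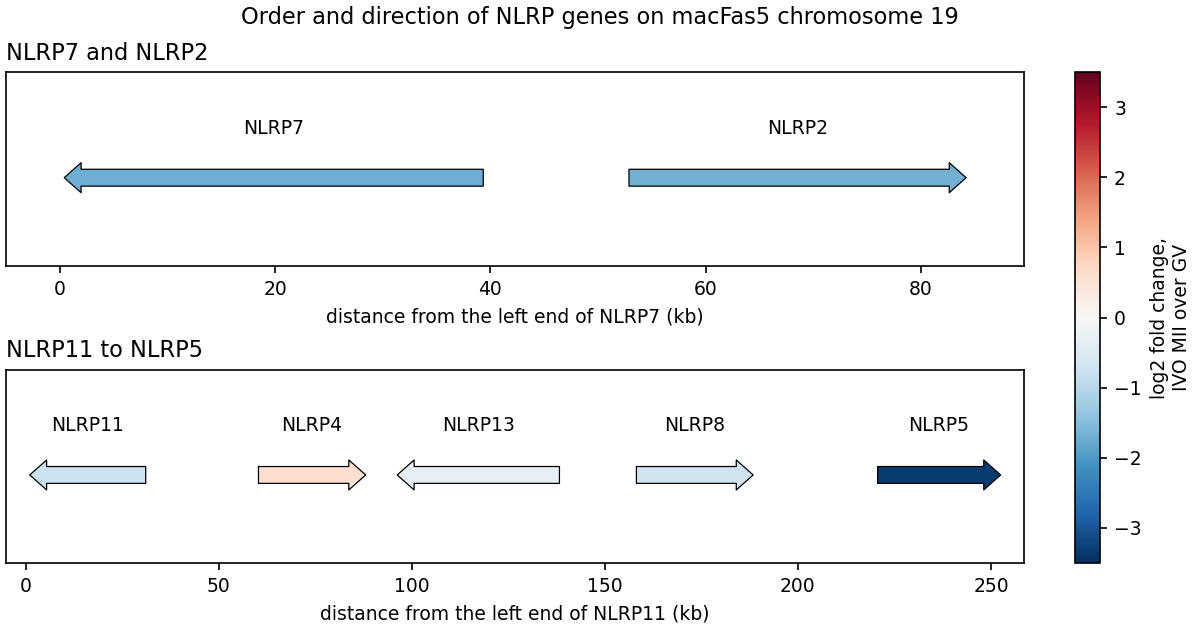
Position and direction of transcription of NLRP genes on macFas5 chromosome 19, as distance in kb from the left end of NLRP7 (upper panel) and of NLRP11 (lower panel). Arrows are genes coloured by their log2 fold change of IVO MII over GV, which was -1.71 for NLRP7 and -1.68 for NLRP2 beside each other and 0.59 for NLRP4 between NLRP11 at -0.75 and NLRP13 at -0.31.

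These genes are related in sequence, and reads that match several of them may have been placed on one of them or counted on more than one. The deposited header names fragments counted over exons with no strand option, no option for multiple mapping and no minimum mapping quality, and no source used here gives the aligner's options. Each value below is therefore that of the reads assigned to a gene, and how many reads were shared between paralogs was not tested. No other gene of the table overlaps the genes on chromosome 19. By gene span, introns included, NLRP14 is overlapped by LOC102118240. That gene had 2234 and 2388 counts in IVM MII, 483 and 751 in IVO MII, and 1779 and 1272 in GV. Whether exons of the pair overlap was not tested, and their reads cannot be told apart by strand.

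Per kilobase of exon, NLRP4 had the highest level of the 7 in every library. Bowtie2, the aligner used, does not split reads over introns. The merged exons ran from 4 in NLRP9, whose model was also the shortest at 2275 bases, to 15 in NLRP7. The part of exon number and gene model in the order and ranks below was not tested. In IVM MII the mean levels, in scaled CPM per kb, were 1109 for NLRP4, 644 for NLRP11, 406 for NLRP9, 238 for NLRP13, 205 for NLRP2, 73.3 for NLRP14 and 68.3 for NLRP7. Only the last pair, NLRP14 and NLRP7, overlapped between libraries there. In IVO MII the order was the same, with NLRP4 at 2077, NLRP11 at 555, NLRP9 at 539, NLRP13 at 218, NLRP2 at 68.9, NLRP14 at 64.4 and NLRP7 at 20.9. There NLRP11 could not be set apart from NLRP9, nor NLRP2 from NLRP14, by the ranges of their libraries. In GV the levels were 1383 for NLRP4, 933 for NLRP11, 653 for NLRP9, 270 for NLRP13, 221 for NLRP2, 158 for NLRP14 and 68.4 for NLRP7, and no neighbours overlapped.

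Among all genes of the table ranked by level per kilobase, NLRP4 lay between rank 28 and rank 71 over the 6 libraries. NLRP9 lay between 74 and 230, NLRP11 between 82 and 148 and NLRP13 between 230 and 338. Wider ranges belonged to NLRP2 (287 to 1208), NLRP14 (467 to 1216) and NLRP7 (974 to 3181). The 7 genes together took 1.16% and 0.917% of all counts in IVM MII, 1.08% and 1.16% in IVO MII, and 1.13% and 1.11% in GV. Their summed level in scaled CPM per kb was 2839 and 2647 in IVM MII, 3641 and 3444 in IVO MII, and 3714 and 3662 in GV. Both IVM MII libraries were below the other 4 with TMM factors, which were 1.22 and 1.04 for IVM MII. Scaling by library totals alone brought the means closer, to 3103 in IVM MII, 3428 in IVO MII and 3389 in GV. By share of all counts, IVM MII replicate 1, at 1.16%, was not below the other groups. Only IVM MII replicate 2, at 0.917%, was.

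**Figure D2:**
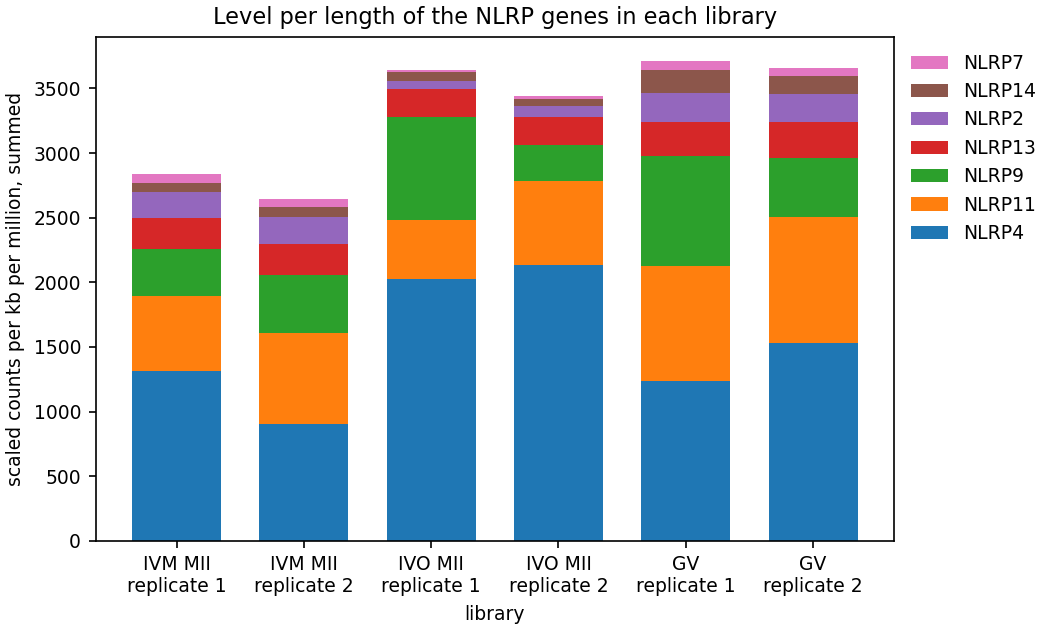
Summed level of the 7 NLRP genes in each library, in TMM-scaled CPM per kb of exon, with each colour 1 gene. The NLRP4 segment made up 46.3% and 34.1% of the bar in IVM MII, 55.5% and 61.9% in IVO MII, and 33.3% and 41.7% in GV.

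**Figure D3:**
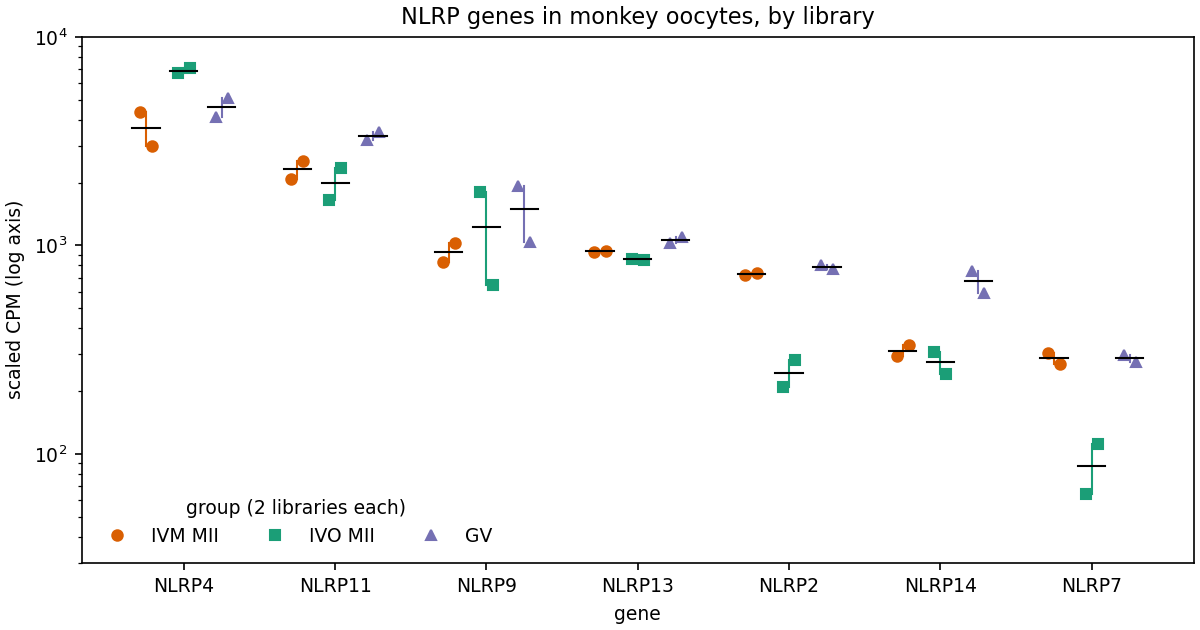
Scaled CPM of each NLRP gene in every library on a log axis, with 2 libraries per group as points, their range as a vertical line and their mean as a horizontal bar. NLRP2 and NLRP7 are lowest in both IVO MII libraries, NLRP14 is highest in both GV libraries, and the IVO MII libraries of NLRP9 lie far apart, at 1808 and 644 CPM.

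Setting IVM MII against IVO MII asks whether oocytes matured in culture hold other transcript levels than those matured in the animal. NLRP2 and NLRP7 were higher in IVM MII and NLRP4 was lower, that is 2 genes higher and 1 lower of 7, against 24.6% called among all genes tested (14.3% higher and 10.3% lower). The median log2 fold change of the 7 was 0.19, beside 0.02 over all genes tested. In bulk libraries like these, fewer oocytes of a kind and less RNA per oocyte cannot be told apart, and a level is a share of the poly(A)-primed RNA in that library. In every comparison here, a change in the amount of a transcript cannot be told apart from a change in its poly(A) tail.

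NLRP2, known in mice as a maternal factor of early embryos, had 720 and 734 CPM in the IVM MII libraries, against 208 and 282 CPM in the IVO MII libraries. Both IVM MII libraries were above both IVO MII libraries. Its log2 fold change was 1.57 ± 0.24, a level 2.97-fold higher in IVM MII (adjusted p = 9.57e-04). NLRP7, which mice lack, had 303 and 270 CPM in IVM MII, against 64.5 and 111 CPM in IVO MII. The groups did not overlap, and the IVO MII libraries differed from each other by 1.72-fold. Its log2 fold change was 1.71 ± 0.27, or 3.27-fold higher in IVM MII (adjusted p = 0.00110).

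Since NLRP2 and NLRP7 are close paralogs, reads could be split between them, so their balance and their sum were also examined. The ratio of NLRP2 counts to NLRP7 counts was 2.37 and 2.71 in IVM MII, 3.23 and 2.54 in IVO MII, and 2.70 and 2.78 in GV. The IVO MII ratios enclosed those of GV, and no group stood apart. Summed into 1 feature, the pair had a log2 fold change of 1.61 ± 0.26 for IVM MII over IVO MII (adjusted p = 0.00115). The sum was -0.08 ± 0.25 for IVM MII over GV (adjusted p = 0.802) and -1.69 ± 0.26 for IVO MII over GV (adjusted p = 1.94e-04). Reads of 1 gene placed on the other would also give a steady ratio. Neither the ratio nor the sum can therefore tell how many reads were shared, and the calls of NLRP2 and NLRP7 may not be independent.

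NLRP4, whose human protein restrains the kinase TBK1 through the ubiquitin ligase DTX4, had 4353 and 2989 CPM in IVM MII, against 6697 and 7054 CPM in IVO MII. Both IVM MII libraries were below both IVO MII libraries, and the IVM MII libraries differed by 1.46-fold. NLRP4 was 1.87-fold lower in IVM MII (log2 fold change -0.91 ± 0.30, adjusted p = 0.0431). This call rested on every library but 1. It was lost without IVM MII replicate 2 (-0.66, adjusted p = 0.178), IVO MII replicate 1 (-0.94, 0.110), IVO MII replicate 2 (-0.86, 0.140), GV replicate 1 (-0.90, 0.0674) and GV replicate 2 (-0.90, 0.0665), and kept without IVM MII replicate 1 (-1.17, 0.0299). Scaling by library totals also ended it (-0.67, adjusted p = 0.111).

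NLRP9, NLRP11, NLRP13 and NLRP14 did not pass the test between IVM MII and IVO MII. NLRP9, which in mice is also known from an inflammasome of the gut, had 828 and 1020 CPM in IVM MII, against 1808 and 644 CPM in IVO MII. The lower and the higher IVO MII library enclosed both IVM MII libraries, and the log2 fold change of -0.41 ± 0.43 (adjusted p = 0.518) changed to 0.52 without IVO MII replicate 1. NLRP11, a primate gene absent from mice whose human protein restrains the signalling ligase TRAF6, had 2085 and 2542 CPM in IVM MII, against 1650 and 2338 CPM in IVO MII. Those groups overlapped, with a log2 fold change of 0.21 ± 0.28 (adjusted p = 0.605).

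NLRP13, whose function is little known, differed by at most 1.07-fold between libraries of a group. It had 930 and 941 CPM in IVM MII, against 859 and 854 CPM in IVO MII. The groups did not overlap, but the log2 fold change was 0.13 ± 0.23 (adjusted p = 0.719). NLRP14 had 293 and 331 CPM in IVM MII, against 308 and 241 CPM in IVO MII. Those ranges overlapped, and the log2 fold change was 0.19 ± 0.24 (adjusted p = 0.603).

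The granulosa marker sum also differed between these groups, at 88.2 and 86.2 CPM in IVM MII, against 36.9 and 53.6 CPM in IVO MII. Of the 6 markers tested, 3 were higher in IVM MII, against 14.3% of all genes tested. Among the 3 was GREM1, which cumulus cells secrete, at 29.0 CPM in IVM MII and 4.01 CPM in IVO MII. The call of TNFAIP6, another of the 3 (1.03), was lost without IVM MII replicate 2 (0.80, adjusted p = 0.1001). The part of this difference in the NLRP results was not tested.

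**Figure D4:**
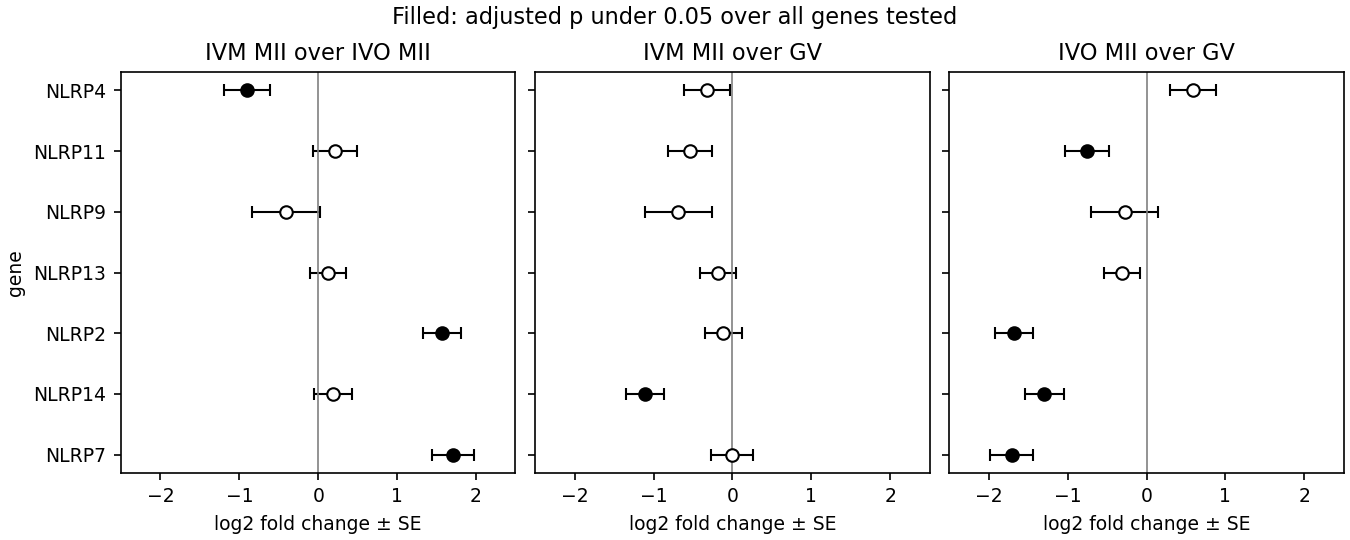
Log2 fold change with its standard error for each NLRP gene (rows) in the 3 comparisons (panels), from edgeR's quasi-likelihood fit to 6 libraries, with filled points at an adjusted p under 0.05. NLRP2 and NLRP7 are filled on opposite sides of 0 in the first and last panels, at 1.57 and 1.71 for IVM MII over IVO MII and at -1.68 and -1.71 for IVO MII over GV.

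Setting IVM MII against GV follows the genes through maturation in culture. NLRP14 alone passed the test, 1 lower of 7, against 50.3% called among all genes tested (25.6% higher and 24.7% lower). None of the 7 was higher by edgeR's quasi-likelihood test, with 0 also at an unadjusted p under 0.05 and 0 by DESeq2. The median log2 fold change of the 7 was -0.32, beside 0.06 over all genes tested. This comparison and that of IVO MII with GV share the GV libraries, so their values are given side by side only. The oocyte marker sum was lower in every MII library than in every GV library, although single markers went both ways. Of the 13 oocyte markers tested, 2 were higher and 6 lower in IVM MII against GV, and 4 were higher and 7 lower in IVO MII against GV. Among all genes tested, 28.1% were higher and 30.5% lower in IVO MII against GV. The granulosa marker sum was 88.2 and 86.2 CPM in IVM MII, against 40.4 and 34.9 CPM in GV, and GREM1 was 7.31-fold higher in IVM MII. Of the 6 granulosa markers tested, 3 were higher and 1 lower in IVM MII against GV, and 1 was higher and 1 lower in IVO MII against GV. The fall of CYP19A1 in IVM MII against GV was lost without IVM MII replicate 1 (adjusted p = 0.154) or GV replicate 2 (0.257). That of TNFAIP6 in IVO MII against GV was lost without IVO MII replicate 1 (0.102), IVO MII replicate 2 (0.0773) or GV replicate 1 (0.218), and HAS2, the higher gene there (2.15), was 1.36 without IVO MII replicate 2. The part of these markers in the NLRP results was not tested.

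NLRP14, which in mice binds the DNA methylation factor UHRF1 and a mitochondrial calcium exchanger, had 293 and 331 CPM in IVM MII, against 757 and 589 CPM in GV. Both IVM MII libraries were below both GV libraries. It was 2.15-fold lower in IVM MII (log2 fold change -1.11 ± 0.24, adjusted p = 0.00300). NLRP2 had 720 and 734 CPM in IVM MII, against 804 and 768 CPM in GV. NLRP2 did not pass (-0.11 ± 0.24, adjusted p = 0.714), although its groups did not overlap. NLRP7 had 303 and 270 CPM in IVM MII, against 298 and 276 CPM in GV, and these ranges overlapped. Its log2 fold change was -0.00 ± 0.26 (adjusted p = 0.996).

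NLRP4 had 4353 and 2989 CPM in IVM MII, against 4100 and 5059 CPM in GV, with overlapping ranges and a log2 fold change of -0.32 ± 0.29 (adjusted p = 0.385). NLRP11 had 2085 and 2542 CPM in IVM MII, against 3196 and 3508 CPM in GV. Both IVM MII libraries of NLRP11 were lower than both GV libraries, yet the log2 fold change of -0.53 ± 0.28 did not pass (adjusted p = 0.127). NLRP9 had 828 and 1020 CPM in IVM MII, against 1932 and 1040 CPM in GV, and NLRP13 had 930 and 941 CPM, against 1028 and 1099 CPM. Neither passed, at -0.69 ± 0.43 (adjusted p = 0.200) for NLRP9 and -0.18 ± 0.23 (adjusted p = 0.526) for NLRP13. Under library totals, which move the median of all genes to 0.35, the uncalled values of NLRP2, NLRP4, NLRP7 and NLRP13 in this comparison turn to 0.18, 4.40e-04, 0.30 and 0.11.

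Setting IVO MII against GV follows maturation in the animal. NLRP2, NLRP7, NLRP11 and NLRP14 fell, 4 lower of 7, against 58.5% called among all genes tested (28.1% higher and 30.5% lower). None was higher by edgeR's quasi-likelihood test, with 0 at an unadjusted p under 0.05 and 1, NLRP4, by DESeq2. The median log2 fold change of the 7 was -0.75, beside -0.07 over all genes tested.

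NLRP2 had 208 and 282 CPM in IVO MII, against 804 and 768 CPM in GV, and was 3.21-fold lower (log2 fold change -1.68 ± 0.25, adjusted p = 1.40e-04). NLRP7 had 64.5 and 111 CPM in IVO MII, against 298 and 276 CPM in GV, and was 3.27-fold lower (-1.71 ± 0.27, adjusted p = 2.51e-04). For both genes the 2 IVO MII libraries lay below every GV library. NLRP14 had 308 and 241 CPM in IVO MII, against 757 and 589 CPM in GV, and was 2.45-fold lower (-1.29 ± 0.25, adjusted p = 8.24e-04). Its IVO MII libraries lay below both GV libraries, as its IVM MII libraries did.

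NLRP11 had 1650 and 2338 CPM in IVO MII, against 3196 and 3508 CPM in GV, without overlap. It was 1.68-fold lower in IVO MII (-0.75 ± 0.28, adjusted p = 0.0360). The call was lost without GV replicate 1 (-0.81, adjusted p = 0.0875), GV replicate 2 (-0.68, 0.155) or IVO MII replicate 1 (-0.51, 0.280).

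NLRP4 was the only one of the 7 with a positive value in this comparison. It had 6697 and 7054 CPM in IVO MII, against 4100 and 5059 CPM in GV, and both IVO MII libraries were above both GV libraries. Its log2 fold change of 0.59 ± 0.29 did not pass (adjusted p = 0.106). NLRP9 had 1808 and 644 CPM in IVO MII, against 1932 and 1040 CPM in GV. Its ranges overlapped, at -0.28 ± 0.43 (adjusted p = 0.596), and its value was -1.19 and passed the test without IVO MII replicate 1 (adjusted p = 0.0204), the higher library of that group. It was 0.29 without IVO MII replicate 2 and 0.24 without GV replicate 1. NLRP13 had 859 and 854 CPM in IVO MII, against 1028 and 1099 CPM in GV. Its groups did not overlap, but its value of -0.31 ± 0.23 did not pass (adjusted p = 0.263).

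The balance between neighbours on the chromosome varied with these levels. Per kilobase, NLRP4 stood at 2.26 and 1.28 times NLRP11 in IVM MII, 4.40 and 3.27 times in IVO MII, and 1.39 and 1.56 times in GV. Both IVO MII libraries had the highest ratios, and the IVM MII libraries enclosed those of GV.

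The nearest patterns to each gene were sought by the root mean square distance of log2 CPM over the 6 libraries, each gene centred on its mean. These distances rest on the same 6 libraries and are descriptions only. For NLRP7 the nearest genes with a symbol were DHPS, at a distance of 0.07, and NLRP2, at 0.14. For NLRP2 they were TRIM45 (0.07) and ACSBG2 (0.10), and NLRP7 was the 8th nearest of all genes tested. The median distance to all genes was 1.00 for NLRP2 and 1.06 for NLRP7. NLRP2 and NLRP4 were 1.16 apart, farther than the median gene from NLRP2.

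Among genes with a symbol, the nearest to NLRP4 were NABP2 (0.10) and CCDC27 (0.11), and those to NLRP11 were CLSTN2 (0.04) and GNL3 (0.07). Of the genes with a symbol, NLRP13 lay nearest to MED17 and TMOD3 (0.07 each), and NLRP14 to RPL35A (0.09) and FASTKD2 (0.12). NLRP9, with its wide spread between replicates, was nearest to LARS (0.12) and HECTD4 (0.20). Within the family, NLRP11 and NLRP13 were 0.26 apart, and no other pair of the 7 besides NLRP2 and NLRP7 was closer.

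NLRP5, the core gene at the end of the same stretch of chromosome 19, had 85.1 and 86.7 CPM in IVM MII, 41.8 and 57.9 CPM in IVO MII, and 435 and 575 CPM in GV. Its log2 fold change was -2.56 ± 0.26 for IVM MII over GV (adjusted p = 1.67e-05) and -3.34 ± 0.26 for IVO MII over GV (adjusted p = 2.41e-06). Its value of 0.78 ± 0.24 for IVM MII over IVO MII passed (adjusted p = 0.0356), but not without IVM MII replicate 1 (0.83, 0.0943), IVM MII replicate 2 (0.78, 0.126) or IVO MII replicate 1 (0.57, 0.221). IVM MII against IVO MII had 3 of the 6 core genes higher and 1 lower, against 14.3% and 10.3% of all genes tested. Each of these 4 calls was lost on leaving out at least 1 library. In IVM MII against GV, 4 of the 6 were lower, against 24.7% of all genes tested. In IVO MII against GV 5 were lower and 1 higher, against 30.5% and 28.1% of all genes tested. The higher gene, ZBED3 (0.84), lost its call without IVO MII replicate 1 (0.75, adjusted p = 0.0837) or GV replicate 2 (0.61, 0.206).

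Of the 6 other NLRP genes listed, NLRP1, NLRP3 and NLRP8 were tested. NLRP8 stood at 208 and 222 CPM in IVM MII, 260 and 118 CPM in IVO MII, and 297 and 332 CPM in GV. It did not pass in IVM MII over GV (-0.55 ± 0.31, adjusted p = 0.163) or in IVO MII over GV (-0.74 ± 0.32, adjusted p = 0.0624). In IVO MII over GV it passed without IVO MII replicate 1 (-1.41, 0.00104), by DESeq2 (-0.71, 0.0481), without a low-count filter (-0.73, 0.0373), under the strict filter (-1.07, 0.0108) and with the replicate block (-0.80, 0.0482). It passed in IVM MII over GV under the strict filter (-0.83, 0.0428) and with the 4 compared libraries alone (-0.64, 0.0282). NLRP3, the inflammasome sensor of myeloid cells, averaged 3.07 CPM in IVM MII, 0.972 in IVO MII and 1.22 in GV. NLRP1, a sensor of the skin, averaged 1.16 CPM in IVM MII, 4.60 in IVO MII and 1.83 in GV. Of these 3 genes, 1 was higher and 1 lower in IVM MII against IVO MII, and 1 was higher in each comparison with GV, but each of these calls was lost on leaving out at least 1 library. Among all genes tested, 24.6% were called in IVM MII against IVO MII, 50.3% in IVM MII against GV and 58.5% in IVO MII against GV. NLRP10 and NLRP12 had no count in any library, and NLRP6 had 3 counts, all in IVO MII replicate 2.

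Of 10 listed genes that work with NLRP proteins in inflammasomes, 3 were tested, and PYCARD, the adaptor that links sensor to caspase, had no count in any library. NEK7, a kinase that binds NLRP3, was 3.64-fold lower in IVM MII, at 24.5 CPM, than in IVO MII, at 89.2 CPM (adjusted p = 3.24e-04). It was 7.08-fold higher in IVO MII than in GV, at 12.6 CPM (adjusted p = 5.43e-06). In all, 2 of the 3 were lower in IVM MII against IVO MII, 1, NEK7, was higher in IVM MII against GV and 2 were higher in IVO MII against GV. Among all genes tested, 10.3% were lower in IVM MII against IVO MII. In IVM MII against GV 25.6% were higher, and in IVO MII against GV 28.1%. The call of CASP8, the other gene lower in IVM MII against IVO MII (-1.47), was lost without IVM MII replicate 1 (-1.32, adjusted p = 0.0782), IVM MII replicate 2 (-1.58, 0.0530) or IVO MII replicate 1 (-1.15, 0.0783). The NEK7 call in IVM MII against GV (0.96) was lost without IVM MII replicate 2 (0.69, adjusted p = 0.0656).

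Of 10 known partners of NLRP proteins outside inflammasomes, 9 were tested. Against IVO MII, 1 was higher in IVM MII, TRAF6 (0.69 ± 0.23, adjusted p = 0.0478), and this call was lost without IVM MII replicate 1 (0.62, 0.181) or 2 (0.79, 0.1002) and without IVO MII replicate 1 (0.70, 0.122) or 2 (0.69, 0.113). Among all genes tested, 14.3% were higher in IVM MII against IVO MII. In IVM MII against GV 4 of the 9 partners rose, against 25.6% of all genes tested. In IVO MII against GV 5 rose and 1 fell, against 28.1% and 30.5% of all genes tested. TRAF6, the ligase that NLRP11 restrains in human cells, averaged 78.5 CPM in IVM MII, 48.6 in IVO MII and 18.2 in GV. It was 4.30-fold higher in IVM MII than in GV (adjusted p = 4.69e-05) and 2.66-fold higher in IVO MII than in GV (adjusted p = 3.62e-04). KLHDC10, a ligase adaptor, was 2.17-fold higher in IVM MII and 3.28-fold higher in IVO MII than in GV. BECN1, an autophagy protein bound by human NLRP4, was 2.11-fold higher in IVM MII and 2.26-fold higher in IVO MII than in GV.

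Of 11 genes that write, keep, protect or remove DNA methylation in the oocyte and early embryo, 9 were tested. In IVM MII against IVO MII 1 was lower, TET3, which oxidises methylcytosine, at 53.4 CPM in IVM MII and 136 CPM in IVO MII (2.54-fold lower, adjusted p = 0.00238). Among all genes tested, 10.3% were lower in IVM MII against IVO MII. In IVM MII against GV 4 of the 9 rose and 1 fell, against 25.6% and 24.7% of all genes tested. In IVO MII against GV 5 rose and 1 fell, against 28.1% and 30.5% of all genes tested. In IVM MII against GV the call of TET3 (0.84) was lost without IVM MII replicate 1 (0.81, adjusted p = 0.0617) or GV replicate 2 (0.56, 0.138). That of DNMT3A, the 1 that fell (-0.90), was lost without IVM MII replicate 2 (-0.57, 0.145) or GV replicate 1 (-0.79, 0.0886). DNMT3B, a methyltransferase, was 2.00-fold higher in IVM MII and 2.52-fold higher in IVO MII than in GV. DNMT1, the maintenance methyltransferase, was 2.40-fold higher in IVO MII, at 2718 CPM, than in GV, at 1132 CPM (adjusted p = 0.00381). It was also 1.89-fold higher in IVM MII, at 2137 CPM, than in GV (adjusted p = 0.0249). DNMT1 did not pass between IVM MII and IVO MII (adjusted p = 0.425).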

How the data were processed

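The deposited table holds raw counts of fragments per gene for the 6 libraries. Per the file headers, the authors made them with featureCounts 2.0.1 over exons, by gene, on paired reads, and the gene models and their lengths are those of macFas5. Per the submitters' processing notes, fastp, FastQC, Bowtie2, SAMtools and featureCounts were used. Per the labels' protocols, cDNA was primed on poly(A) tails, extended by template switching and amplified by PCR, and no molecular identifiers are named. Bowtie2 does not split reads over introns.

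Counts were analysed with edgeR 4.0.16 (R 4.3.3): filterByExpr kept 15815 genes and left out 12349, TMM factors ran from 0.903 to 1.22, and a robust quasi-likelihood fit to all 6 libraries had group terms only, 3 residual degrees of freedom and a biological coefficient of variation of 0.232. Tests were two-sided, with Benjamini-Hochberg adjustment over all genes tested, a threshold of 0.05 and no fold threshold. Nothing in the sources used here says whether replicates came from separate animals, so p-values measure the spread between these libraries, which may be technical. A floor of 3 counts is 0.0695 to 0.116 CPM. It covers counting error only.

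Alternatives were RLE factors, library totals, DESeq2 1.42.0, a stricter minimum (10 CPM in at least 2 libraries) or none on low counts, a fit to just the 4 libraries compared, a replicate block, an offset for gene length, NLRP2 and NLRP7 summed, and each library left out. The procedure was also run on counts simulated with the spread of its own fit. Few genes were changed there, and in IVM MII only. Since a far larger share of genes was called in the data, that run does not test the scaling used here.

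The members and gene lists were chosen with earlier results of these data known. All 7 members and NLRP5 are named throughout, with, for each member, the 2 genes with a symbol nearest in pattern. From each list, up to 3 called genes per direction and comparison are named by smallest adjusted p. Of the list genes this rule allows, not all are printed. The RefSeq gene table, of assembly T2T-MFA8v1.1, gave names only. Of 11294 LOC identifiers, 788 had a symbol there and 721 were used. Figures were drawn with matplotlib 3.10.9.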

Additional observations from a re-analysis of the deposited data

Results flagged for a closer look

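For 3 of the 7 genes the effect of maturation differed between culture and the animal, against 24.6% of all genes tested. The test of that difference is that of IVM MII over IVO MII itself, since both effects share the GV libraries. For NLRP2 the log2 difference, culture less animal, was 1.57, from effects of -0.11 in culture and -1.68 in the animal. For NLRP7 it was 1.71, from -0.00 and -1.71. For NLRP4 it was -0.91, from -0.32 and 0.59, and that call was lost when any 1 of 5 libraries was left out and under library totals.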

How the results depend on the processing

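The calls of NLRP2 and NLRP7 in IVM MII over IVO MII and in IVO MII over GV, and those of NLRP14 in both comparisons with GV, held in every alternative that could be fitted for them. Their log2 fold changes ran from 1.37 to 1.81 and from -2.01 to -1.47 for NLRP2, from 1.37 to 2.16 and from -2.14 to -1.36 for NLRP7, and for NLRP14 from -1.38 to -0.82 in IVM MII over GV and from -1.63 to -1.10 in IVO MII over GV.

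In IVM MII over IVO MII, the count of members lower was 0 under library totals, the strict filter (NLRP4 -0.85, adjusted p = 0.0555) and the 4 compared libraries alone (-0.87, 0.0679), and 0 to 1 with each library left out. The count of members higher was 1 with NLRP2 and NLRP7 summed, by construction. Of all genes, 2260 were higher and 1635 lower, against 2803 and 894 under library totals, which moved the median of all genes to 0.24, and 1051 lower under the strict filter, which tests fewer genes. With each library left out, 1327 to 2094 were higher and 753 to 1496 lower. In IVM MII over GV, 2 members were lower by DESeq2 and under the strict filter, where NLRP11 joined NLRP14 (-0.58, adjusted p = 0.0435, and -0.81, 0.0310). All genes numbered 2268 higher and 2352 lower under the strict filter, and 2580 to 4452 higher with each library left out. In IVO MII over GV, 1 member, NLRP4, was higher by DESeq2 (0.61, adjusted p = 0.0329), and 2727 genes were higher and 2859 lower under the strict filter, where NLRP13 passed as well (-0.64, 0.0263).

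Values that changed sign were all uncalled. In IVM MII over GV, library totals gave NLRP2 0.18, NLRP4 4.40e-04, NLRP7 0.30 and NLRP13 0.11, and NLRP7 was 0.0255 without a low-count filter, 5.84e-05 with the replicate block and -0.0488 to 0.0934 with each library left out. NLRP9 in IVO MII over GV was 0.0938 with the length trend removed and -1.19 to 0.29 with each library left out. In IVM MII over IVO MII, leaving out each library gave -0.96 to 0.52 for NLRP9, -0.0140 to 0.50 for NLRP11 and -0.27 to 0.87 for NLRP8. The summed level was 3103 in IVM MII and 3389 in GV under library totals. Apart from the counts said to follow from construction or fewer genes tested, the cause was not tested.

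The replicate block left the counts of members at 2 higher and 1 lower, 1 lower and 4 lower, and gave 2180 and 1545, 3982 and 3748, and 4345 and 4670 genes higher and lower in the 3 comparisons. The deviations of libraries with the same number correlated at -0.114 between IVM MII and IVO MII, -0.144 between IVM MII and GV and 0.178 between IVO MII and GV. With 2 libraries a group, these values cannot tell whether libraries of the same number share an animal or a batch. The sources used here do not say. With 2 libraries a group, leaving out 1 leaves a lone library, assumed to vary like the others. The smallest member count, 1669, is far above the floor of 3 counts, but without molecular identifiers counts do not give the number of molecules sampled.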
